A study of Homo sapiens with 12 samples.

Results

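The genes described here are 10 response genes and regulators of bone morphogenetic protein (BMP) and transforming growth factor beta (TGF-beta) signalling: ID1, ID2, ID3, ID4, SMAD6, SMAD7, SMAD9, BAMBI, SKIL and TSC22D1. They were chosen by name, as 10 of the 41878 gene rows of the count table, and the list was drawn up because TSC22D1 had been seen lower in starved replicates 1 and 2. All 10 passed the filter on low counts, which kept 18030 genes. RNA was sequenced from HEK293T cells, a transformed human embryonic kidney line, transfected with 1 µg of plasmid, which was either the control vector or encoded TRPML3, the product of MCOLN3 and a cation channel of endolysosomal membranes. Cells of each plasmid were either kept in medium with 10% serum (fed) or held without serum (0%) for 4 h (starved), a treatment the submitters used to start autophagy. The 4 groups of vector fed, vector starved, TRPML3 fed and TRPML3 starved held 3 libraries each, named by the submitters as biological triplicates. All 12 cultures were transfected, so no group shows untransfected cells, and the TRPML3 groups carry a strongly overexpressed channel.

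The 12 libraries held 33101540 to 43700547 counts each. Levels are counts-per-million values (CPM) of the library total after scaling by the trimmed mean of M-values (TMM). MCOLN3 lay at 18.4 CPM or lower in all 6 vector libraries and at 4929 CPM or higher in all 6 TRPML3 libraries. NEFM, NEFL and INA, neurofilament genes that HEK293 cells are known to express, were present at 91.9 to 176, 64.3 to 97.2 and 23.7 to 45.0 CPM. Among markers of other cell types, KRT14 was at 0 in all 12 libraries, PTPRC and KRT5 were at 0 in 11, and CDH5 in 10. COL3A1, a collagen gene listed with the fibroblast markers, was present at 14.8 to 21.7 CPM, whereas DCN on the same list stayed at or below 0.577 CPM. In bulk RNA of this kind, fewer cells expressing a gene and less RNA per cell cannot be told apart.

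BMP and TGF-beta ligands bind paired serine/threonine kinase receptors, which phosphorylate receptor SMAD proteins. SMAD1, SMAD5 and SMAD9 serve the BMP branch and SMAD2 and SMAD3 the TGF-beta and activin branch, and both join SMAD4 to regulate genes in the nucleus. ID1 to ID4, which encode helix-loop-helix proteins without a DNA-binding region, are classic direct targets of the BMP branch and hold E proteins away from DNA. SMAD6 and SMAD7 are inhibitory SMADs induced by the pathway that they restrain. BAMBI encodes a receptor-like protein without a kinase, SKIL a nuclear corepressor of SMADs, and TSC22D1 a leucine zipper protein first described as a TGF-beta-stimulated clone.

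The regulatory sequence in front of 4 members is shown as description. These 4 were picked by their serum difference or by their motif matches, so they cannot link motifs to levels. SMAD7 and TSC22D1 had the largest fed and starved difference among the members other than SMAD6, SMAD9 and SKIL, which varied most between libraries. Within the 250 bases searched before each start, BAMBI had the most motif copies and SMAD6 alone held a palindromic SMAD element. Each window holds the 250 bases before the RefSeq start on GRCh38.p14, read 5′ to 3′ on the gene's strand. Capitals mark matches on either strand to 3 published SMAD-binding motifs: GTCTAGAC, the palindrome; CAGAC, with its reverse complement; and GGCGCC, the GC-rich BMP element. A CAGAC match is not contained in GTCTAGAC or GGCGCC. The windows lie at chr18:48950966-48951215 on the minus strand for SMAD7, chr13:44576566-44576815 on the minus strand for TSC22D1, chr10:28677271-28677520 on the plus strand for BAMBI and chr15:66701986-66702235 on the plus strand for SMAD6. For SMAD7 and TSC22D1, which have 3 and 5 annotated starts, the most upstream start is shown.
SMAD7: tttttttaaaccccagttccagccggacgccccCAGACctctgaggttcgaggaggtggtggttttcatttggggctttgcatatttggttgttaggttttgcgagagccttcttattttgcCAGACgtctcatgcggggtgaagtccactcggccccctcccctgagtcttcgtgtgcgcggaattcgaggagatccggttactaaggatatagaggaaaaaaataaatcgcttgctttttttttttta
TSC22D1: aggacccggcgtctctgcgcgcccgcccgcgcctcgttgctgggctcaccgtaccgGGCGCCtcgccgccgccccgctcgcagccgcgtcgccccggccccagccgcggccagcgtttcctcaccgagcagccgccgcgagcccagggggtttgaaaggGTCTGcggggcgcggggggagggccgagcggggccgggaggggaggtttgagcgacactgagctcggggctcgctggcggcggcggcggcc
BAMBI: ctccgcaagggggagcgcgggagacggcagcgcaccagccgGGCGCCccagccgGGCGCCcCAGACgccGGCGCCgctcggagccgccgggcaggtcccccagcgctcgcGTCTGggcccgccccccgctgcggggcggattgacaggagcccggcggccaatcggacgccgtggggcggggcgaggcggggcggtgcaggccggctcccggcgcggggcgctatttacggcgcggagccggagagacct
SMAD6: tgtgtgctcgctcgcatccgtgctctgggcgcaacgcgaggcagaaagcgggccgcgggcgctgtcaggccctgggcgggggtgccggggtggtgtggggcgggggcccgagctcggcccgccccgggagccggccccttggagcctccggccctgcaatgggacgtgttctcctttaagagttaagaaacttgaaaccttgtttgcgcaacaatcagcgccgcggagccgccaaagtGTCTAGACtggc

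All 10 members matched a RefSeq promoter, with 16 windows in all, and windows of neighbouring starts of 1 gene overlap. GTCTAGAC was found in 1 member, SMAD6, 12 bases before the start, and in 0.182% of the 35116 windows of all genes. CAGAC was found in 6 members and in 8 of the 16 windows, against 38% of all windows. GGCGCC was found in 3 of the 16 windows, 1 each of BAMBI, SKIL and TSC22D1, against 16.4% of all windows, a share near the background, and BAMBI held 3 copies within its window. The windows of ID1, ID2 and SMAD9 held none of these letters. A match describes the letters of a window and is not a measured binding site. Sequence outside the windows was not searched, so a member without a match may hold these motifs elsewhere.

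Per kilobase of exon, ID2 was the most abundant member and SMAD6 the least. Mean levels over the 12 libraries, in CPM per kilobase of merged exons, were 70.5 for ID2, 37.5 for ID4, 17.5 for ID3, 10.8 for TSC22D1 and 5.69 for ID1. They were 4.51 for SMAD7, 3.93 for BAMBI, 3.52 for SMAD9, 0.804 for SKIL and 0.332 for SMAD6. ID2 exceeded ID4, ID4 exceeded ID3, ID3 exceeded TSC22D1 and TSC22D1 exceeded ID1 in 12 of 12 libraries. From ID1 downward, no gene exceeded the next in more than 8 of 12 libraries, so the order of ID1, SMAD7, BAMBI, SMAD9, SKIL and SMAD6 was not fixed across libraries. Merged exons count every annotated isoform, which lowers the per-kilobase level of a gene such as TSC22D1 whose short and long isoforms differ widely.

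Among the inhibitors of DNA binding, ID2 (ENSG00000115738, GRCh38 chr2:8678845-8684453, plus strand) ran at 183, 201 and 103 CPM in vector fed replicates 1, 2 and 3 and at 121, 150 and 136 CPM in vector starved cells. In TRPML3 cells it ran at 193, 210 and 119 CPM fed and at 146, 168 and 136 CPM starved. Fed replicates 1 and 2 of both plasmids were the 4 highest libraries, and the 2 fed replicate 3 libraries were the lowest. ID2-AS1, an antisense transcript at the same place, held 284 to 766 counts per library, or 7.46% of the ID2 counts in total. The use of strand in counting is not given in the sources used here, so reads of the pair cannot be told apart.

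ID1 (ENSG00000125968, chr20:31605283-31606515, plus strand), often used as the first readout of BMP signalling, had a far lower level and another pattern. It ran at 8.32, 8.66 and 4.36 CPM in vector fed, 6.0, 5.70 and 8.37 CPM in vector starved, 6.96, 8.83 and 4.79 CPM in TRPML3 fed and 5.81, 5.90 and 10.5 CPM in TRPML3 starved cells. In replicates 1 and 2 the fed libraries lay above the starved ones, and in replicate 3 the starved libraries lay above the fed ones for both plasmids; TRPML3 starved replicate 3 was the highest of all 12. Its group means were 7.11 ± 2.39, 6.69 ± 1.47, 6.86 ± 2.02 and 7.41 ± 2.69 CPM (SD, n = 3 each) in that order of groups.

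ID3 (ENSG00000117318, chr1:23557918-23559794, minus strand) ran at 41.6, 40.0 and 28.1 CPM in vector fed and at 28.8, 26.3 and 29.6 CPM in vector starved cells. In TRPML3 cells it ran at 35.8, 45.6 and 28.1 CPM fed and at 25.7, 13.7 and 34.1 CPM starved. The single lowest library was TRPML3 starved replicate 2, and the fed replicate 3 libraries sat within the starved range of their plasmid. ID4 (ENSG00000172201, chr6:19837386-19840684, plus strand) had the smallest ratio of highest to lowest library, 1.92, of the 10 members, while ID2, with a ratio of 2.04, had the smallest coefficient of variation (22.6% against 25.8% for ID4). It ran at 75.4, 100.3 and 64.1 CPM in vector fed, 66.2, 92.0 and 74.6 CPM in vector starved, 122, 84.6 and 63.9 CPM in TRPML3 fed and 119, 122 and 71.4 CPM in TRPML3 starved cells. Its 3 highest libraries were TRPML3 libraries, and all 4 groups overlapped.

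SMAD7 (ENSG00000101665, chr18:48919853-48952052, minus strand), the inhibitory SMAD of both branches, was the member whose fed and starved libraries did not overlap in either plasmid. It ran at 46.3, 28.2 and 18.4 CPM in vector fed and at 14.6, 17.3 and 16.4 CPM in vector starved cells. In TRPML3 cells it ran at 24.9, 41.4 and 22.0 CPM fed and at 15.2, 14.2 and 13.1 CPM starved. All 6 starved libraries lay below all 6 fed ones, and the gap between vector fed replicate 3 and the highest starved library was small. Group means were 31.0 ± 14.1 CPM in vector fed, 16.1 ± 1.39 in vector starved, 29.5 ± 10.5 in TRPML3 fed and 14.2 ± 1.05 in TRPML3 starved cells (SD, n = 3 each).

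TSC22D1 (ENSG00000102804, chr13:44432143-44577147, minus strand), the gene around which the list was drawn, ran at 158, 135 and 67.6 CPM in vector fed and at 67.9, 60.6 and 70.5 CPM in vector starved cells. In TRPML3 cells it ran at 145, 147 and 76.7 CPM fed and at 55.1, 55.0 and 79.0 CPM starved. The 4 fed libraries of replicates 1 and 2, at 135 to 158 CPM, stood apart from the other 8, at 55.0 to 79.0 CPM, among which fed and starved replicate 3 could not be separated. BAMBI (ENSG00000095739, chr10:28677342-28682939, plus strand) ran at 12.0, 12.6 and 6.08 CPM in vector fed, 6.32, 8.10 and 8.87 CPM in vector starved, 9.05, 14.7 and 7.30 CPM in TRPML3 fed and 6.83, 8.21 and 9.03 CPM in TRPML3 starved cells. Its lowest library was vector fed replicate 3, and fed and starved ranges overlapped in both plasmids.

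**Figure D1:**
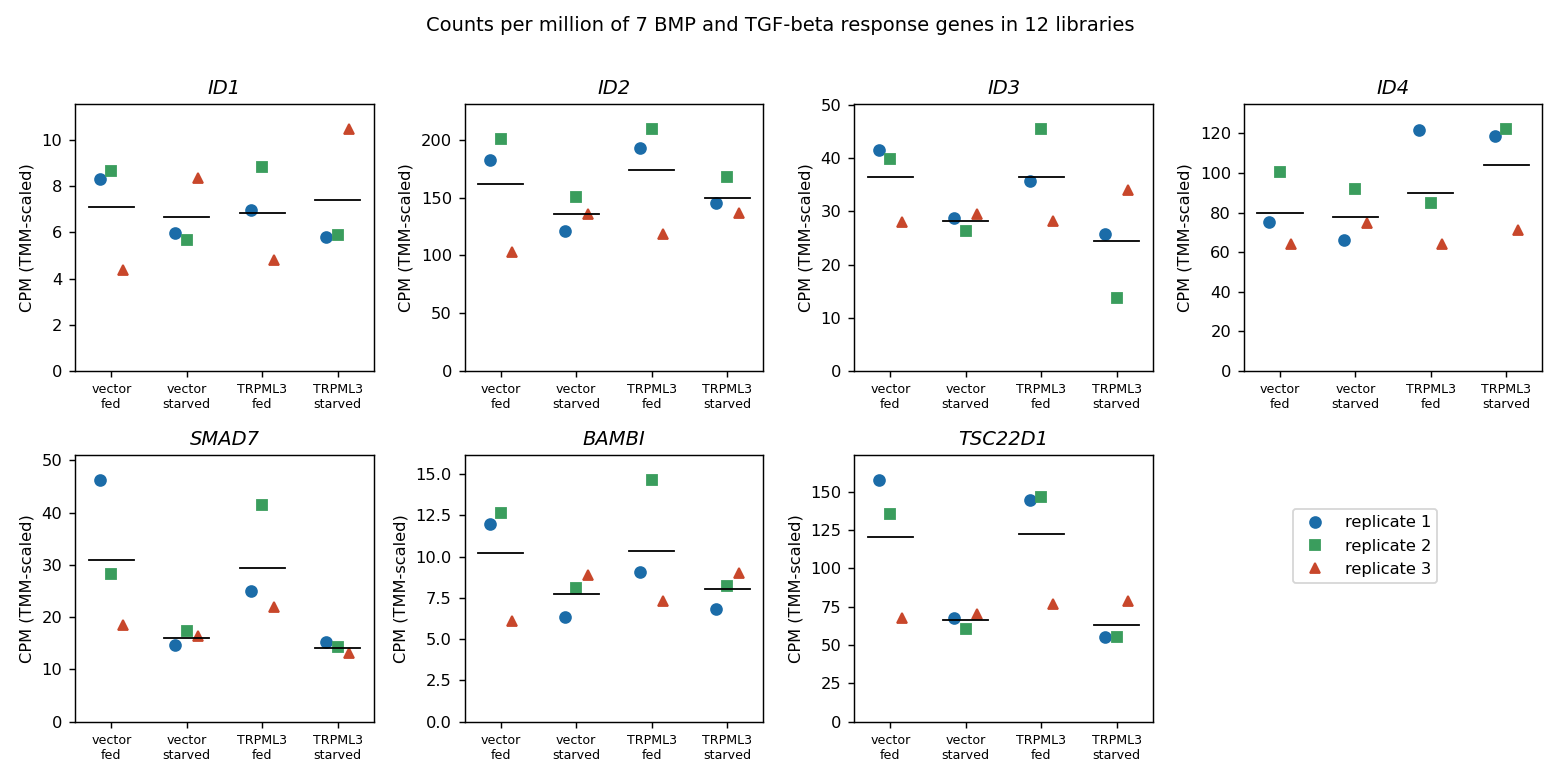
CPM (TMM-scaled, vertical axis from 0) of the 7 members other than SMAD6, SMAD9 and SKIL in the 4 groups. Each point is 1 library, its shape and colour give the replicate number, and the bar is the group mean. Fed replicates 1 and 2 are high for TSC22D1 (135 to 158 CPM), while fed replicate 3 (67.6 and 76.7 CPM) sits at the level of the starved libraries.

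The other 3 members, SMAD6, SMAD9 and SKIL, varied widely between replicates of most groups. SMAD9 (ENSG00000120693, chr13:36844831-36920765, minus strand), a receptor SMAD of the BMP branch, was below 1 CPM in 6 of 12 libraries and between 15.8 and 54.7 CPM in the other 6. It ran at 46.9, 0.320 and 49.0 CPM in vector fed, 0.220, 50.9 and 0.113 CPM in vector starved, 15.8, 0.964 and 54.7 CPM in TRPML3 fed and 0.117, 0 and 22.4 CPM in TRPML3 starved cells. In counts these were 1710, 14 and 1708, then 9, 1903 and 5, then 659, 37 and 1678, and then 4, 0 and 773. High and low libraries occurred in every group, and no plasmid or serum state held only high ones. The adjoining genes RFXAP and ALG5 held 1090 to 2907 and 1423 to 2588 counts in the same libraries, and SMAD9-IT1, annotated within SMAD9, held 4 to 49.

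SKIL (ENSG00000136603, chr3:170357678-170396835, plus strand) ran at 7.36, 0.525 and 6.91 CPM in vector fed, 0.710, 5.72 and 26.9 CPM in vector starved, 12.9, 8.36 and 0.587 CPM in TRPML3 fed and 2.02, 1.95 and 1.07 CPM in TRPML3 starved cells. SMAD6 (ENSG00000137834, chr15:66702228-66782848, plus strand), the inhibitory SMAD of the BMP branch, ran at 1.70, 0.845 and 10.5 CPM in vector fed, 0.416, 11.7 and 0.473 CPM in vector starved, 0.768, 2.45 and 0.424 CPM in TRPML3 fed and 0.788, 3.05 and 1.04 CPM in TRPML3 starved cells. Its 2 high libraries, vector fed replicate 3 and vector starved replicate 2, were of different serum states. The ratio of highest to lowest library was 28.0 for SMAD6, 51.2 for SKIL and at least 609 for SMAD9, whose lowest library was set to a floor of 3 counts. Larger ratios were seen in 6.10%, 3.88% and 0.361% of the 18030 genes, whose median ratio was 3.69. Such spread was not limited to these members, since 855 of the 10813 genes with a mean of at least 5 CPM (7.91%) had a ratio of at least 20.

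**Figure D2:**
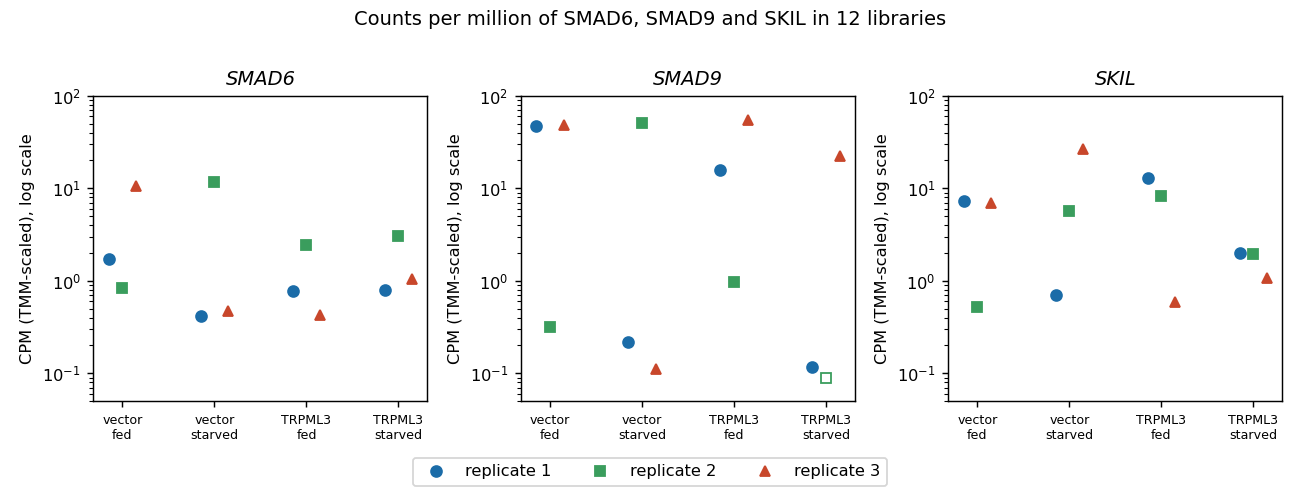
CPM (TMM-scaled, logarithmic vertical axis) of SMAD6, SMAD9 and SKIL in the 4 groups; each point is 1 library, marked by replicate number, and the open symbol is a count of 0 drawn at the floor of 3 counts. SMAD9 spans 0 to 54.7 CPM and has high and low libraries in each group.

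The effect of TRPML3 asked whether the channel moved these genes in fed or in starved cells, and no member passed the test. With edgeR's quasi-likelihood test and Benjamini-Hochberg adjustment over 18030 genes, 0 of 10 members were called in fed cells, where 0.0111% of all genes were called, and 0 of 10 in starved cells, where 0.00555% were. None was called for the average over both serum states (0.0111% of all genes) or for the interaction of plasmid and serum (0% of all genes). With so few calls over all genes, the count of members is at the background. At an unadjusted p under 0.05 no member passed either, against 2.21% of genes in fed cells, 2.2% in starved cells, 2.07% for the interaction and 2.62% for the average. DESeq2's Wald test called 30 genes in fed cells, 43 in starved cells, 27 for the interaction and 29 for the average, and again no member. With the replicate number as a block, edgeR called 0 genes in fed cells, 0 in starved cells and 1 for the average, none of them a member. In fed and in starved cells this blocked fit thus missed MCOLN3 itself, the overexpressed gene. Its lack of member calls there cannot count as support. For all 10 members the libraries of the 2 plasmids overlapped in both serum states. Over all genes they did not overlap for 7.09% in fed cells and 6.58% in starved cells, so 0 of 10 members is near the background. Compared by replicate number, ID2 was higher with TRPML3 in 6 of 6 same-numbered pairs, as were 2.06% of all genes (2.07% were lower in all 6), and BAMBI in 5 of 6. The blocked fit gave ID2 an average log2 difference of 0.12 ± 0.15 (SE) and an edgeR adjusted p of 1. That fit gives each replicate number 1 effect shared by fed and starved cells. It does not pair libraries within a serum state, so it cannot decide the pattern of these pairs. The other 8 members were higher in 3 or 4 of 6 pairs.

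For 7 members the intervals were narrow enough to bound the effect of TRPML3. In fed cells the log2 difference of TRPML3 minus vector was -0.05 for ID1, 0.10 for ID2, -0.0027 for ID3, 0.17 for ID4, -0.07 for SMAD7, 0.01 for BAMBI and 0.03 for TSC22D1, and their 95% intervals all lay between -0.88 and 0.82. The adjusted p was 1 for each of them by edgeR. In starved cells the differences were 0.15, 0.14, -0.21, 0.43, -0.18, 0.05 and -0.07 in the same order, again with an edgeR adjusted p of 1, and the intervals lay between -0.95 and 1.08. ID4 had the largest of these, 0.43 ± 0.30 (SE) with an interval of -0.23 to 1.08, at means of 104 ± 28.5 CPM in TRPML3 starved and 77.6 ± 13.2 CPM in vector starved cells (SD, n = 3). A change inside these intervals would not be detectable with this spread, and the missed threshold does not show that the plasmids acted alike.

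SMAD6, SKIL and SMAD9 could not be bounded usefully. SKIL was at 1.68 ± 0.526 CPM in TRPML3 starved and 11.1 ± 13.9 CPM in vector starved cells (SD, n = 3), a log2 difference of -2.73 ± 1.34 (SE) with an interval of -5.69 to 0.23, an adjusted p of 1 by edgeR and an unadjusted p of 0.0676. This was the smallest unadjusted p of any member, and the vector mean rested on the 26.9 CPM of replicate 3. Without replicate 3 of either plasmid the SKIL difference was -0.69, and no call was made. The SMAD6 difference was -1.83 ± 1.35 (SE) in fed and -1.36 ± 1.34 in starved cells, and without vector starved replicate 2 the starved value turned to 1.86. The SMAD9 interval ran from -5.79 to 4.93 in fed cells.

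The median log2 difference of the 10 members was 0.0058 in fed and -0.13 in starved cells, against -0.0094 and -0.0060 over all genes tested. For the interaction, starved minus fed, the members' median was -0.03 with SKIL lowest at -3.29 ± 1.82 (SE), an edgeR adjusted p of 0.999915 and an unadjusted p of 0.0988. BAMBI (0.03 ± 0.50) and ID2 (0.04 ± 0.39) were nearest to 0. MCOLN3 itself was not even across TRPML3 libraries, at 6211, 4929 and 39972 CPM in fed and 41362, 58223 and 16896 CPM in starved replicates 1, 2 and 3. The part of this unevenness in the members' values was not tested.

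**Figure D3:**
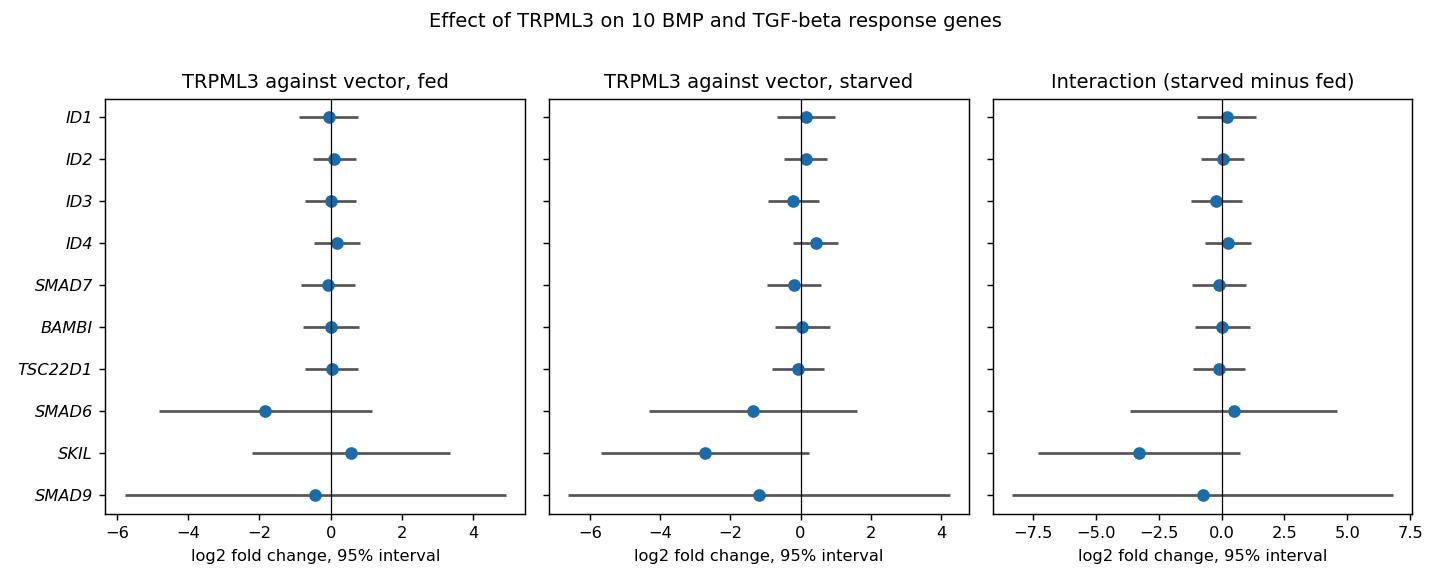
Log2 fold change of TRPML3 over vector with its 95% interval (horizontal axis) for the 10 members in fed cells, in starved cells and as the interaction (starved minus fed). Every interval crosses 0; those of SMAD6, SKIL and SMAD9 are several times wider than those of the other 7.

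The serum contrast is given as values without a test, since the list was drawn up from it. Averaged over the plasmids, SMAD7 had a starved minus fed log2 difference of -1.0 ± 0.25 (SE) and TSC22D1 of -0.91 ± 0.24. Next came ID3 at -0.47 ± 0.23, BAMBI at -0.38 ± 0.25 and ID2 at -0.24 ± 0.19, while ID4 was at 0.08 ± 0.21 and ID1 at 0.01 ± 0.27. SKIL (-0.47 ± 0.89), SMAD6 (0.18 ± 0.93) and SMAD9 (-1.29 ± 1.74) had errors larger than or close to their values. Starved values were below fed ones for 9 of 10 members in vector cells (50.6% of all genes), 7 of 10 in TRPML3 cells (48.8%) and 7 of 10 on average (49.3%), with medians of -0.32, -0.47 and -0.43. SMAD7 was the 1 member whose starved libraries all lay below the fed ones, a pattern held by 4.57% of genes in vector cells, 5.66% in TRPML3 cells and 0.499% over both.

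Taken by plasmid, SMAD7 differed by -0.94 ± 0.35 (SE) in vector and -1.06 ± 0.35 in TRPML3 cells, TSC22D1 by -0.86 ± 0.33 and -0.96 ± 0.34, and ID3 by -0.37 ± 0.33 and -0.58 ± 0.33. SKIL lay furthest apart, at 1.17 ± 1.27 with vector and -2.12 ± 1.31 with TRPML3. ID1, ID4 and SMAD6 also had values below 0 in vector cells (-0.09, -0.04 and -0.06) and above 0 in TRPML3 cells (0.11, 0.21 and 0.42). The interaction given above tests these differences, and it called no member.

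Replicate 3 stood apart in these genes. The fed library of replicate 3 was the lowest of its group for both plasmids in 7 of 10 members (ID1, ID2, ID3, ID4, SMAD7, BAMBI and TSC22D1), as it was in 23% of all genes. The starved library of replicate 3 was the highest of its group for both plasmids in 4 of 10 members (ID1, ID3, BAMBI and TSC22D1), as in 22.7% of all genes. Both patterns were looked for after the values had been seen. Mitochondrially encoded genes took 4.83% to 5.70% of counts in the 4 replicate 3 libraries, 2.81% to 4.40% in replicate 1 and 1.05% to 2.52% in replicate 2. The part of this in the members' values was not tested.

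Without replicate 3 the starved minus fed log2 difference was -1.29 ± 0.11 (SE) for TSC22D1, -1.19 ± 0.25 for SMAD7, -0.79 ± 0.23 for ID3 and -0.70 ± 0.22 for BAMBI. It was -0.47 ± 0.16 for ID1, which had been at 0.01 with all libraries, and -0.42 ± 0.12 for ID2. ID4 stayed near 0 at 0.05 ± 0.19. Leaving out the other replicate numbers made most of these differences smaller in size. Without replicate 1 they were -0.69 ± 0.32 for TSC22D1, -0.85 ± 0.30 for SMAD7, -0.46 ± 0.36 for ID3, -0.25 ± 0.36 for BAMBI, -0.10 ± 0.28 for ID2 and 0.19 ± 0.40 for ID1. Without replicate 2 they were -0.71 ± 0.34, -0.89 ± 0.33, -0.18 ± 0.24, -0.15 ± 0.33, -0.15 ± 0.25 and 0.33 ± 0.37 in the same order. Over all genes, edgeR called 0 genes for the average serum effect with all 12 libraries, with 1704 (9.45%) at an unadjusted p under 0.05, and 273 by DESeq2. Without replicate 3 edgeR called 810 of 18052 genes, or 4.49%, of which 351 were lower in starved cells. These values come from the replicates on which TSC22D1 had been seen, and they describe those 8 libraries.

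**Figure D4:**
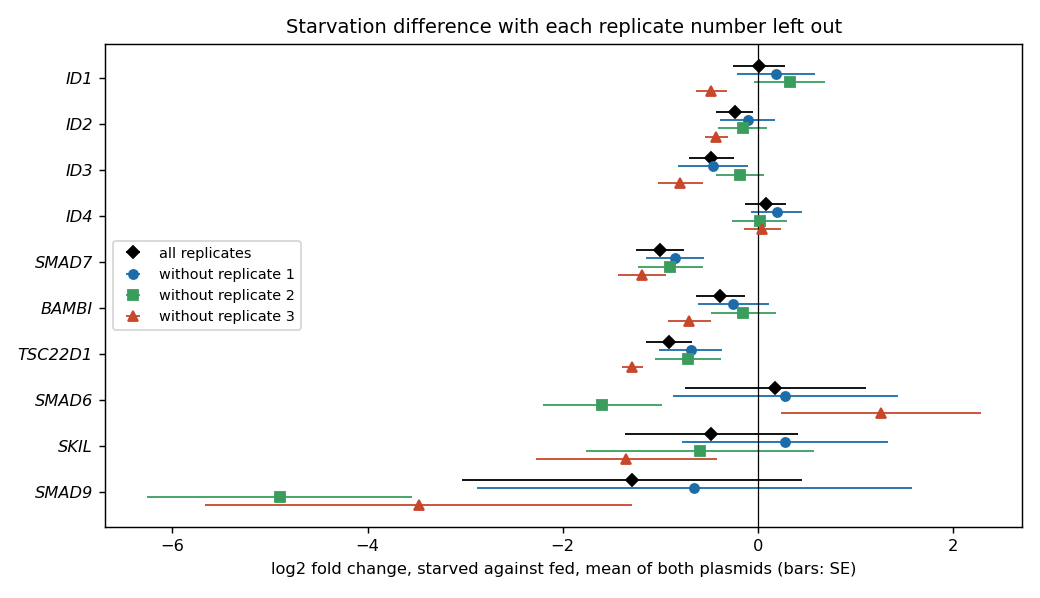
Starved minus fed log2 fold change averaged over both plasmids (horizontal axis, bars are the SE) for the 10 members, with all 12 libraries and with each replicate number left out. Leaving out replicate 3 takes TSC22D1 from -0.91 to -1.29 and ID1 from 0.01 to -0.47; SMAD7 stays between -0.85 and -1.19.

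The rest of the pathway was read from lists of 72 other genes written by role, of which 69 passed the filter. In each of the 4 TRPML3 comparisons, 0 of these 69 rose and 0 fell by edgeR's adjusted p. Their median log2 difference was 0.05 in fed, 0.03 in starved cells and 0.04 on average, against -0.0094, -0.0060 and -0.01 over all genes. At an unadjusted p under 0.05 there were 3 in fed cells (SKI, CCN2 and GATA2), 1 in starved cells (ACVRL1), 2 for the interaction (CCN2 and GATA2) and 1 for the average (SKI). That is 3 of 69 beside 2.21% of all genes in fed cells, and every adjusted p was close to 1.

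Among 15 ligands tested, INHBA, a subunit of activin, was at 4.31, 7.70 and 1.23 CPM in vector fed and at 6.79, 9.17 and 7.50 CPM in TRPML3 fed cells, an average TRPML3 log2 difference of 0.92 ± 0.54 (SE). GDF11, the ligand with the highest mean, was at 19.5 to 47.4 CPM with a difference of -0.02 ± 0.24. BMP2 stayed at or below 2.88 CPM in every library. Among 13 receptors, BMPR2, the type II receptor for BMPs, was the most abundant, at 77.2 to 131 CPM with a difference of 0.01 ± 0.15. ACVR2B, a type II receptor for activin, ran at 109, 66.7 and 94.1 CPM in vector fed, 33.8, 115 and 89.4 CPM in vector starved, 54.2, 194 and 161 CPM in TRPML3 fed and 7.48, 10.6 and 68.2 CPM in TRPML3 starved cells. Its interaction was -2.07 ± 1.12, with an edgeR adjusted p of 0.999915 and an unadjusted p of 0.0938.

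Of the 5 receptor and common SMADs, SMAD5 was the highest at 181 to 314 CPM, with an average TRPML3 difference of -0.11 ± 0.16 (SE). SMAD1, which like SMAD9 serves the BMP branch, ran at 87.8, 102 and 54.2 CPM in vector fed, 69.4, 62.0 and 27.8 CPM in vector starved, 140, 120 and 56.3 CPM in TRPML3 fed and 65.4, 67.8 and 37.4 CPM in TRPML3 starved cells. Both receptor SMADs of the BMP branch other than SMAD9 were thus present in all 12 libraries, including those where SMAD9 was near 0. SMAD1 was lowest in replicate 3 in each of the 4 groups.

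Among the regulators, SKI, the corepressor related to SKIL, was at 24.1, 6.76 and 2.24 CPM in vector fed and at 42.4, 60.0 and 69.3 CPM in TRPML3 fed cells. The log2 difference was 2.37 ± 0.79 (SE), at an edgeR adjusted p of 1 and an unadjusted p of 0.0124. In starved cells SKI was at 11.7, 59.1 and 40.8 CPM with vector and 67.0, 66.4 and 35.6 CPM with TRPML3, and these groups overlapped. FKBP1A, which binds type I receptors, was the steadiest of the named genes, at 294 to 363 CPM with a TRPML3 difference of 0.05 ± 0.08. TWSG1, a secreted BMP modulator, was at 89.9, 97.4 and 96.5 CPM in vector fed and 103, 106 and 105 CPM in TRPML3 fed cells. TWSG1 and SKI were the 2 of 69 genes higher without overlap in fed cells and MSX1 the 1 lower, against 3.22% and 3.87% of all genes. In starved cells 3 of 69 were higher without overlap and 2 lower, against 6.58% of all genes in either direction. TWSG1 was among the higher, at 86.0, 24.8 and 75.7 CPM with vector and 90.1, 86.7 and 90.0 CPM with TRPML3, a narrow gap.

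Among 13 other target genes, HEY1, a transcriptional repressor of the Notch and BMP responses, was the most abundant at 280 to 396 CPM, with a TRPML3 difference of 0.13 ± 0.10 (SE). CCN2, a matricellular target of TGF-beta, was at 28.9 CPM in TRPML3 fed replicate 1, 9.87 CPM in vector starved replicate 1 and 4.47 CPM in TRPML3 fed replicate 3, and at 0 in the other 9 libraries. GATA2 was at 34.3, 8.25 and 54.7 CPM in vector fed and 0.600, 2.29 and 10.5 CPM in TRPML3 fed cells, and at 10.5, 61.2 and 7.70 CPM in vector starved and 29.9, 63.1 and 80.3 CPM in TRPML3 starved cells. LTBP2 was the 1 of 69 genes higher without overlap in all starved libraries (1.17 ± 0.24), and TGFBR2 the 1 lower (-0.63 ± 0.28), as seen for 0.754% and 0.499% of all genes. LTBP2 and TGFBR2 are named here after their values were seen.

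TSC22D2, a relative of TSC22D1 in the leucine zipper family, had high fed libraries in the same replicates. It ran at 193, 184 and 94.5 CPM in vector fed, 107, 123 and 137 CPM in vector starved, 170, 208 and 109 CPM in TRPML3 fed and 111, 120 and 143 CPM in TRPML3 starved cells. TSC22D4 was at 10.5 to 19.5 CPM with no such separation. TSC22D3, the other relative on the list, is named here after its values were seen. Its starved minus fed log2 difference, averaged over the plasmids, was -0.49 ± 0.32 (SE), against -0.37 ± 0.21 for TSC22D2. For both genes the fed and starved libraries overlapped in each plasmid. The E proteins that ID proteins bind were all present: TCF3 at 27.2 to 50.5 CPM, TCF12 at 31.5 to 82.9 CPM and TCF4 at 11.8 to 73.2 CPM. Their TRPML3 differences were 0.21 ± 0.17, 0.16 ± 0.21 and -0.26 ± 0.33 (SE).

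The genes whose log2 CPM most resembled that of TSC22D1 over the 12 libraries were INHBB (Pearson r = 0.98), FOXD2-AS1 (0.98), L3MBTL3 (0.98), SMIM8 (0.97) and SKIDA1 (0.97). INHBB, a subunit of activin B and itself on the ligand list, averaged 5.72 CPM in fed replicates 1 and 2 and 2.43 CPM in the other 8 libraries. Those nearest to ID1 were ZNF143 (0.96), ITM2C (0.95), TUBB3 (0.95), SNAI1 (0.94) and ELAVL3 (0.94), and those nearest to ID3 included CHST11 (0.94), SBK1 (0.94), NKX2-1 (0.94) and KDM7A (0.93). These are among the highest of 18030 coefficients each, over points that share library, depth and replicate, and are given as descriptions. Among the members, TSC22D1 was most like SMAD7 (r = 0.88), ID3 (0.81) and BAMBI (0.81), BAMBI most like ID2 (0.85), and SMAD9 least like ID4 (-0.41).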

How the data were processed

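Raw gene counts and a normalized table for 12 libraries (polyA-enriched RNA) were used. The deposited whole numbers are called counts here; whether they are read counts or rounded estimates is not stated. The submitters' processing notes name FastQC, fastp, HISAT2, StringTie, DESeq2 and GRCh38, with no order or version; annotation release and strand use are not given in the sources used here. The authors' normalized signal is counts divided by a factor per library: 100% of its values returned whole reads within 0.01.

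Counts were fitted with edgeR 4.0.16 (R 4.3.3; TMM, filterByExpr, robust quasi-likelihood, 1 coefficient per group, 8 residual degrees of freedom), adjusted by Benjamini-Hochberg over 18030 genes at 0.05. The script was tested on simulated data. DESeq2 1.42.0, limma 3.58.1 on log2(normalized value + 1), other scalings and filters, a replicate block and left-out libraries were alternatives. The members and lists were chosen with earlier results of these data known, so starvation contrasts carry no test. Named pathway genes are, per list, those with an adjusted p under 0.05, up to 2 with the largest average TRPML3 difference at 1 CPM or more, and the highest mean; likeness names the 5 highest r, and some items are not reported here. Same-numbered libraries of both plasmids deviated together within a serum state (r of 0.12, 0.17 and 0.36 fed; 0.12, 0.11 and 0.32 starved), but not between serum states (-0.086 to 0.0093). Positions and exon lengths come from GENCODE release 29, which held 93.9% of gene identifiers and all 10 members, and promoters from RefSeq.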

Additional observations from a re-analysis of the deposited data

How the results depend on the processing

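Over 25 alternative fits, 975 alternative values of the members in the TRPML3 comparisons gave 0 calls, and every call of 0 members stood. The number of genes called over all genes was less steady. In fed cells (2 genes) it was 1 without MCOLN3 in the fit, 30 with DESeq2, 0 with the replicate block and 1 with the compared groups alone, and in starved cells (1 gene) 0, 43, 0 and 3. For the average TRPML3 effect (2 genes) it was 1 without MCOLN3, 29 with DESeq2, 1 with the replicate block and 4 with limma-trend, and for the interaction (0 genes) 27 with DESeq2. For serum in vector cells (1 gene) it was 43 with DESeq2, 0 with the replicate block and 0 with the compared groups alone, and DESeq2 gave 89 in TRPML3 cells and 273 on average (0 genes each). The cause of these differences was not tested. The replicate block, with 1 effect per replicate number shared by fed and starved cells, changed no call of a member. It also left MCOLN3 uncalled in fed and in starved cells, so its lack of member calls there is not support. Reads recovered from the normalized table, an alternative chosen after seeing the data, called 2, 1, 0 and 2 genes in the TRPML3 comparisons in fed and starved cells, the interaction and the average, as many as the deposited counts. That table is the counts divided by a factor per library, so this agreement was fixed in advance. The recovered reads, included in the 25 fits, are no independent check.

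Leaving out 1 library, or all of 1 replicate number, gave 0 to 4 genes in fed cells, 0 to 5 in starved cells, 0 to 3 for the interaction, 0 to 6 for the average TRPML3 effect, 0 to 2 for serum in vector cells, 0 to 3 in TRPML3 cells and 0 to 810 for the average serum effect. Log2 differences changed sign in 102 of 600 values with libraries left out and in 15 of 375 values from other settings. ID3 in fed cells, -0.0027, was 0.012 with DESeq2 size factors, 0.012 with the DESeq2 Wald test, 0.0021 with no filter, 0.0040 with the replicate block, 0.0078 with limma-trend and 3.31e-05 with the compared groups alone. Scaling by library size alone, which moved the median gene by -0.10 in starved cells, gave -0.053 (fed), -0.060 (starved), -0.0070 (interaction) and -0.057 (average) for BAMBI, -0.033 for TSC22D1 in fed cells and -0.040 for ID1 on average. BAMBI in fed cells was -0.0036 with the replicate block. Under limma-trend SMAD9 in fed cells was 0.051, against -0.43, and SMAD6 in starved cells 0.011, against -1.36; the cause was not tested. In fed cells, left-out libraries moved the log2 difference over -0.31 to 0.15 for ID1, -0.14 to 0.31 for ID2, -0.18 to 0.16 for ID3, -0.15 to 0.42 for ID4, -3.35 to 0.34 for SMAD6, -0.45 to 0.44 for SMAD7, -1.93 to 0.16 for SMAD9, -0.30 to 0.22 for BAMBI, -0.13 to 1.45 for SKIL and -0.26 to 0.28 for TSC22D1. In starved cells, left-out libraries moved the log2 difference over -0.20 to 0.34 for ID1, -0.53 to 0.080 for ID3, -2.19 to 1.86 for SMAD6, -8.68 to 6.05 for SMAD9, -0.080 to 0.15 for BAMBI and -0.28 to 0.029 for TSC22D1. For the interaction, left-out libraries moved the log2 difference over -0.16 to 0.45 for ID1, -0.17 to 0.28 for ID2, -0.54 to 0.14 for ID3, -1.99 to 4.37 for SMAD6, -0.74 to 0.31 for SMAD7, -7.67 to 6.49 for SMAD9, -0.20 to 0.35 for BAMBI and -0.35 to 0.18 for TSC22D1. For the average, left-out libraries moved the log2 difference over -0.12 to 0.15 for ID1, -0.26 to 0.039 for ID3, -2.11 to 0.018 for SMAD6, -0.29 to 0.077 for SMAD7, -5.08 to 2.80 for SMAD9, -0.13 to 0.13 for BAMBI, -1.62 to 0.38 for SKIL and -0.17 to 0.10 for TSC22D1. Members not listed kept their sign. In starved cells these were ID2 (0.054 to 0.22), ID4 (0.22 to 0.63), SMAD7 (-0.31 to -0.12) and SKIL (-3.44 to -0.69). For the interaction they were ID4 (0.0021 to 0.53) and SKIL (-3.85 to -1.51), and for the average ID2 (0.00024 to 0.23) and ID4 (0.032 to 0.43). The lowest and highest SMAD9 values came without replicates 3 and 2 as whole numbers in starved cells. With 3 libraries per group and this spread, changes of SMAD6, SKIL and SMAD9 of several log2 units could go uncalled.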
